A study of Homo sapiens with 8 samples.

Results

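Neuropeptide precursor genes encode secreted proteins that are cut into small signalling peptides inside the secretory granules of neurons and endocrine cells. Their RNA is set largely by signalling to the nucleus, cyclic AMP and the CREB family of factors being the best known route, and their peptides act on G protein-coupled receptors of nearby cells. Sympathetic neurons and the neuroblastomas that arise from that lineage are known for NPY, VIP and GAL, and sensory neurons for CALCA and TAC1. The 10 genes described here are CALCA, CALCB, NPY, VIP, GAL, SST, NTS, PENK, TAC1 and ADCYAP1, found by their GENCODE symbols among the 60659 genes of the count table. They were proposed with results of these libraries in view, so their own values are given as a description, with no p-value, and their calls are counted only to describe them.

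SK-N-SH cells, which come from a human neuroblastoma, were profiled by sequencing after ribosomal RNA had been removed. There were 4 groups of 2 libraries, which the labels call biological replicates. All cells had received 10 µM all-trans retinoic acid (ATRA) for 24 h, and no untreated cells were among the groups, so the effect of ATRA itself cannot be told apart. In the overexpression experiment, parental cells were compared with cells carrying FLAG-tagged ZMYND8, a reader of histone marks, under a doxycycline-inducible promoter. Both received doxycycline. Per the methods, ZMYND8 was delivered by lentivirus and the transduced cells were selected with G418. The labels and methods name no empty-vector control, so effects of ZMYND8 cannot be told apart from those of transduction and selection. In the knockdown experiment, KD control cells were compared with ZMYND8 knockdown cells. The methods describe knockdown by lentiviral shRNA but give its selection for other cells, and how the knockdown SK-N-SH cells were made is not given in the sources used here. Nothing in the sources used here says whether the lines were clones or pools. Each experiment had its own control, and the KD control and parental cells differ by experiment as well as by treatment, so these cannot be told apart.

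Counts on genes totalled 38316523 to 56256979 per library. Counts of ZMYND8 were 3089 and 3612 in parental cells, 220691 and 182849 on overexpression, 3128 and 3374 in KD control cells and 1641 and 1640 on knockdown, so it followed the labels in all 8 libraries and knockdown was partial. Markers of adrenergic neuroblasts and of mesenchymal cells, the states that neuroblastoma cells can take, moved between the groups. The 10 adrenergic markers summed to 338 to 340 CPM (counts scaled to a common library size) in parental cells, 1107 to 1146 on overexpression, 773 to 815 in KD control cells and 603 to 673 on knockdown, with TH, the first enzyme of catecholamine synthesis, at 0 in both groups of the knockdown experiment. The 10 mesenchymal markers summed to 12418 to 13403 CPM, 4010 to 4139, 5642 to 5745 and 7010 to 7395 in the same order. COL1A1, COL3A1, VIM and FN1 made up most of this sum, and not all markers followed it. TWIST1 was higher on overexpression (log2 fold change 1.31), and PRRX1 (-0.98), SNAI2 (-0.41) and TWIST1 (-0.16) were lower on knockdown. The 6 Schwann cell markers summed to 2.30 to 2.45 CPM in parental cells, 8.24 to 8.62 on overexpression, 3.37 to 3.54 in KD control cells and 3.56 to 3.84 on knockdown, with CDH19 at 0 in every group but the overexpression group and SOX10 at 0 in both groups of the knockdown experiment. The 7 sensory neuron markers summed to 81.7 to 89.7 CPM on overexpression and to between 143 and 188 CPM elsewhere. RUNX1 made up most of this sum, at 5765 and 6865 counts in parental cells and 2955 and 2020 on overexpression. Of the 6 sensory markers tested on overexpression, RUNX1 was lower and 4 were higher at an edgeR adjusted p under 0.05, which 12663 of all 20835 genes tested passed. The median log2 fold change of the 6 was 1.66, beside 0.03 over all genes. Nothing is read from this count or median, since POU4F1, at 5 and 3 counts against 30 and 21, was tested only because overexpression cells expressed it. The part of these shifts in the results on the precursor genes was not tested.

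The promoters of the precursor genes are shown first because the CREB family is known to act there. RefSeq windows of 250 bases before to 50 bases after the start of transcription (GRCh38.p14) were matched by symbol for 7 of the 10 genes, those of CALCB, GAL and PENK not being matched. The motif TGACGTCA, the full cyclic AMP response element, was found on either strand in 1 of the 7 genes (SST) and in 1.85% of all 35116 windows. Its core TGACG, which every full element also holds, was found in 6 of the 7 genes (SST, VIP, TAC1, CALCA, NTS and ADCYAP1) and in 24.6% of all windows. The motifs were chosen after the sequences had been seen, in particular TGACATCA, a form with 1 base changed that lies before NTS and in 2.61% of windows. The stretches below are printed 5′ to 3′ on the strand of the gene, with 1 match in capitals in each. The VIP stretch also holds the core on the other strand, 89 bases before the start, in lower case.
SST: gcctcctagccTGACGTCAgagagagagtt
VIP: gccgtcatactgTGACGtctttcagagcac
CALCA: gaagcatgagggTGACGcaacccaggggca
TAC1: ttcctaaaattgCGTCAtttagaacccaat
NTS: tgtacaatcaaTGACATCAtcctcctgctt
They lie at chr3:187670423-187670452 (minus strand, match starting 47 bases before the start of SST), chr6:152750706-152750735 (plus strand, 79 bases before VIP), chr11:14972444-14972473 (minus strand, 110 bases before CALCA), chr7:97731877-97731906 (plus strand, 197 bases before TAC1, where the core is on the other strand) and chr12:85874233-85874262 (plus strand, 51 bases before NTS). Of the other motifs searched on both strands, TATAAA was found in SST and VIP (11.5% of all windows), AGGTCA, a nuclear receptor element, in CALCA (13.8%), CACGTG in TAC1 (7.26%) and TGANTCA, the AP-1 element, in 0 of the 7 genes (7.71%). The core was present before genes that were higher and before genes that were lower on overexpression, as described next.

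The make-up of the precursor counts differed between overexpression and the other groups. The 10 genes summed to 129 and 131 CPM in the parental libraries, 70.1 and 68.9 CPM on overexpression, 78.9 and 76.5 CPM in KD control cells and 47.2 and 52.4 CPM on knockdown, and VIP was the largest part of the sum outside the overexpression group. VIP made up 75.4% and 75.2% of the sum in parental cells and 23.9% and 20.4% on overexpression, while CALCA and CALCB together went from 0.129% and 0.0603% to 44.2% and 42.1%. These are shares of counts, and longer genes give more counts, CALCB having 3938 exon bases and VIP 1585. Per kilobase of exon, GAL (15.1) and VIP (9.72) were above CALCB (5.88) and CALCA (3.22) on overexpression. Counts were found in both libraries for 5 of the 10 genes in parental cells and for all 10 on overexpression. Fewer cells expressing a gene and less RNA of it per cell cannot be told apart in these bulk libraries.

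**Figure D1:**
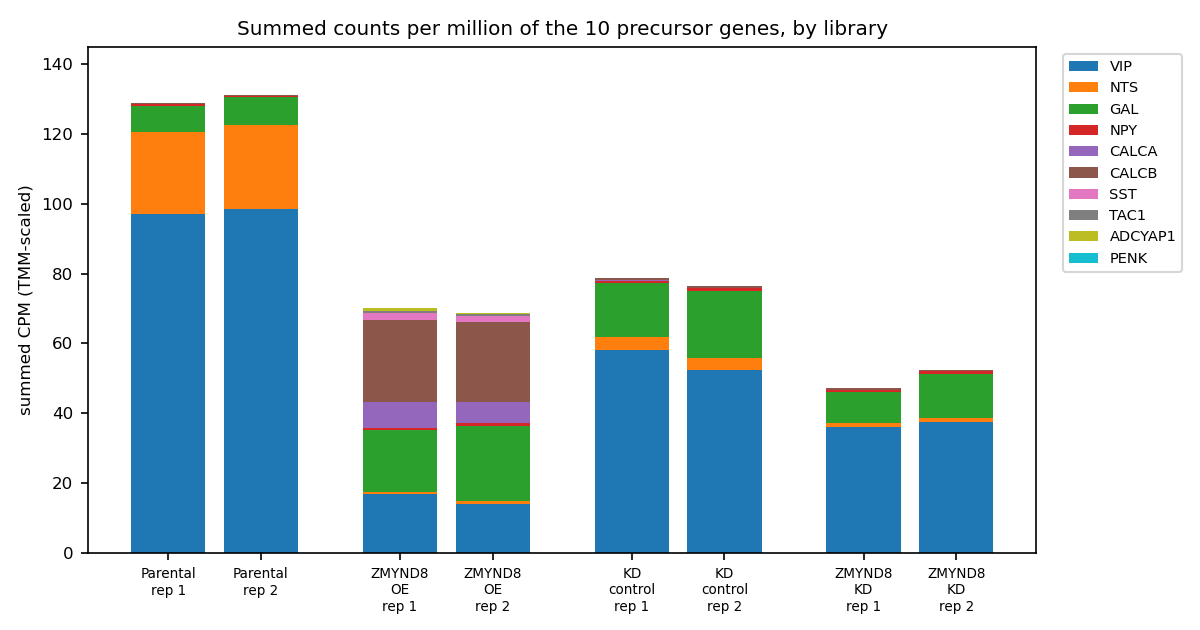
Summed CPM (TMM-scaled library sizes, not scaled by gene length) of the 10 precursor genes in each of the 8 libraries, stacked by gene. VIP is the largest block in the parental, KD control and ZMYND8 knockdown libraries, and CALCA with CALCB make up 44.2% and 42.1% of the 2 overexpression bars.

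CALCA and CALCB encode the alpha and beta forms of calcitonin gene-related peptide (CGRP), a vasodilator peptide of sensory neurons, CALCA also giving calcitonin. CALCA (ENSG00000110680, chr11:14966668-14972351 of GRCh38, minus strand) was at 0 in both parental libraries, and 418 and 285 reads were counted on overexpression. It was at least 105-fold higher on overexpression, a bound computed against 3 counts per library. In the knockdown experiment it had 4 and 1 counts in the control libraries and 2 and 1 on knockdown, too few to be tested.

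CALCB (ENSG00000175868, chr11:14904997-15082342, plus strand) had 7 and 4 counts in the parental libraries and 1308 and 1053 on overexpression, a log2 fold change of 7.67 (SE 0.18), or 189-fold in mean CPM. It had 41 and 36 counts in KD control cells and 23 and 13 on knockdown, a log2 fold change of -1.04 (SE 0.34). The overexpression libraries were far above all other libraries, and the knockdown libraries were below their own controls but above the parental ones. The knockdown value rested on few counts and on single libraries: leaving out single libraries gave values between -1.51 and -0.69, and it fell short of a call without either KD control library (replicate 1 or 2), without knockdown replicate 2, with DESeq2 and with no filter on low counts. CALCA and CALCB are paralogs, and 5.06% and 5.17% of their exonic 31-base sequences occur again on the main chromosomes. The span of CALCB encloses CALCA on the other strand without a shared exon base, and 2.92% of its exon bases are shared with the pseudogene CALCP, so a small part of these counts is uncertain.

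SST, TAC1, ADCYAP1 and PENK had 0 counts in all 6 libraries outside the overexpression group. SST (ENSG00000157005), which encodes somatostatin, an inhibitor of hormone and transmitter release, had 119 and 85 counts on overexpression, at least 30.5-fold higher than in parental cells. TAC1 (ENSG00000006128), the precursor of substance P and neurokinin A, had 35 and 27 counts there and was at least 9.29-fold higher. ADCYAP1 (ENSG00000141433), the precursor of PACAP, a peptide that raises cyclic AMP, had 37 and 11 counts and was at least 6.91-fold higher. The 2 overexpression libraries differed more for ADCYAP1 than for SST or TAC1, at 0.664 and 0.238 CPM. PENK (ENSG00000181195), the proenkephalin gene, had 2 and 3 counts, at or under the floor of 3, so no fold is given. Overlapping genes on the other strand share 17.2% of the exon bases of ADCYAP1 and 20.5% of those of PENK, and the strand setting of the counting is not given in the sources used here.

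VIP (ENSG00000146469, chr6:152750797-152759765, plus strand) encodes vasoactive intestinal peptide, a relaxant of smooth muscle made by cholinergic sympathetic and many other neurons. Parental libraries held 4095 and 4986 counts of VIP, and those with overexpression 933 and 649, so that its level was 97.9 ± 1.01 CPM against 15.4 ± 1.91 (SD, n = 2 each). This was 6.36-fold lower, with a log2 fold change of -2.57 (SE 0.07). In the knockdown experiment VIP had 3020 and 2867 counts in the control libraries and 1866 and 1925 on knockdown, 55.3 ± 3.90 against 36.7 ± 0.898 CPM. The knockdown value was 1.50-fold lower, with a log2 fold change of -0.59 (SE 0.06). No groups overlapped, and VIP was highest in parental and lowest in overexpression cells. LINC02840 lies opposite 20.6% of the exon bases of VIP.

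NTS (ENSG00000133636, chr12:85874295-85882992, plus strand) encodes neurotensin, a peptide of the gut and brain. Its counts were 989 and 1218 in parental cells, 38 and 37 on overexpression, 199 and 188 in KD control cells and 60 and 60 on knockdown. The overexpression libraries were 32.1-fold below the parental ones in mean CPM (log2 fold change -4.92, SE 0.13), and the knockdown libraries 3.12-fold below their controls (log2 fold change -1.64, SE 0.17). NTS was thus lower in both manipulated groups than in their controls, and it passed a call in all 11 alternatives of each comparison.

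GAL (ENSG00000069482, chr11:68683779-68691175, plus strand) encodes galanin, a peptide of sympathetic and neuroendocrine cells. Parental cells gave 309 and 403 counts and overexpression cells 984 and 996, 7.65 ± 0.451 against 19.6 ± 2.76 CPM. This was 2.56-fold higher, with a log2 fold change of 1.44 (SE 0.11). In the knockdown experiment it had 800 and 1035 counts in the control libraries and 455 and 647 on knockdown, a log2 fold change of -0.68 (SE 0.15). GAL was therefore above its control on overexpression and below it on knockdown, while the KD control libraries themselves were at 15.4 and 19.0 CPM, close to the overexpression level.

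NPY (ENSG00000122585, chr7:24284188-24291862, plus strand), the co-transmitter of noradrenergic sympathetic neurons, was low in all groups. Its counts were 32 and 18 in parental cells, 30 and 33 on overexpression, 41 and 46 in KD control cells and 31 and 51 on knockdown. The groups overlapped in both experiments, and the log2 fold changes were 0.28 (SE 0.38) and -0.04 (SE 0.29).

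**Figure D2:**
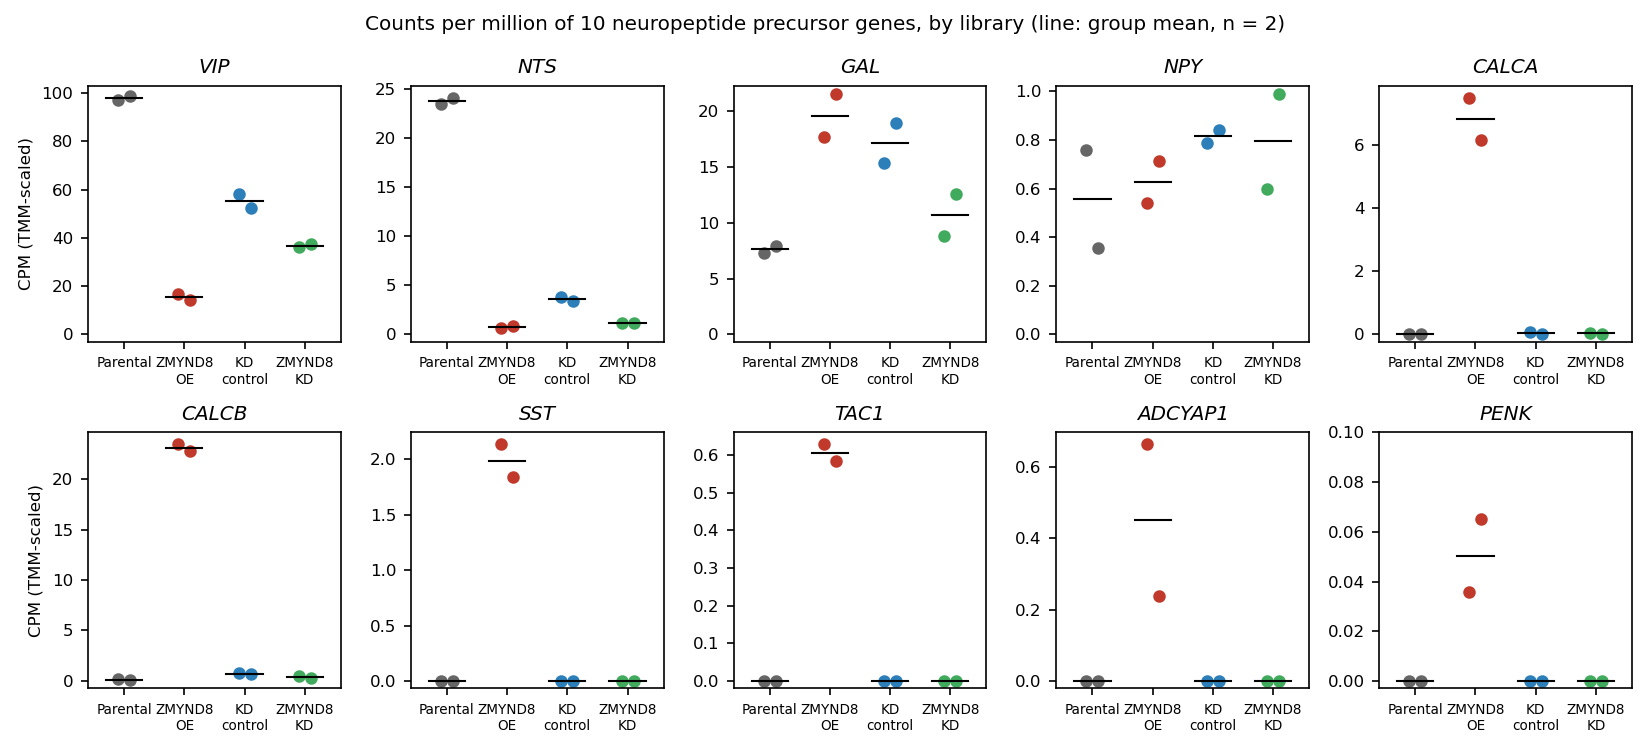
CPM (TMM-scaled) of each of the 10 precursor genes, with a point for each library, a line at the group mean (n = 2) and a separate linear axis from 0 for each gene. CALCA, CALCB, SST, TAC1, ADCYAP1 and PENK stand out in the 2 overexpression libraries, VIP and NTS are highest in parental cells, and for NPY the parental libraries overlap with the overexpression libraries and the KD control with the knockdown libraries.

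Of the 10 genes, 9 were tested on overexpression and 6 passed a call, that is a log2 fold change of 1 or more in either direction, a mean normalized count over 20 and an edgeR adjusted p under 0.05. CALCA, CALCB, GAL and SST were higher and VIP and NTS lower, while 18.6% of all 20835 genes tested were called, 11.8% higher and 6.84% lower. The genes were chosen on this contrast and several were tested only because overexpression cells expressed them, so nothing is read from that count. Libraries of the 2 groups did not overlap for 8 of the 9 genes, and for 80.9% of all genes tested. TAC1 and ADCYAP1 were just outside the call by their mean normalized counts, 15.2 and 11.3, and of the 6 called genes SST had the mean nearest to the threshold, 49.9. TAC1 passed when parental replicate 1 was left out.

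On knockdown, 5 genes could be tested, and NTS and CALCB were called, both lower, while 1.96% of all 19789 genes tested were called, 1.36% higher and 0.596% lower. The libraries of 4 of the 5 lay below both control libraries, and those of NPY overlapped. Groups did not overlap for 61.5% of all genes tested, 31% of all genes being lower in both knockdown libraries. The median log2 fold change of the 5 was -0.68, beside -0.01 over all genes.

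The difference between the overexpression and knockdown effects was fitted over all 8 libraries. It was 8.70 (SE 0.40) for CALCB, 2.12 (SE 0.22) for GAL, -1.99 (SE 0.10) for VIP, -3.28 (SE 0.21) for NTS and 0.30 (SE 0.51) for NPY on the log2 scale. Among all 22619 genes tested for this difference, 18.8% were called, 11.1% with a positive and 7.66% with a negative value. CALCA was also called, but no value is given for it, for SST, for TAC1 or for ADCYAP1, since with groups at 0 the fitted value depends on the prior count.

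The 2 control groups differed as well. In KD control cells against parental cells, the log2 fold change was 2.59 (SE 0.42) for CALCB, 1.18 (SE 0.12) for GAL, 0.59 (SE 0.35) for NPY, -0.81 (SE 0.06) for VIP and -2.70 (SE 0.10) for NTS. CALCB, GAL and NTS were called, in a comparison in which 21.6% of all 20385 genes tested were called, and the call of CALCB was lost without either KD control library (replicate 1 or 2), while NPY passed without parental replicate 1. This comparison uses the parental libraries that also serve the overexpression comparison, so the values of both share their control. SST, TAC1, ADCYAP1 and PENK were at 0 in both control groups.

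**Figure D3:**
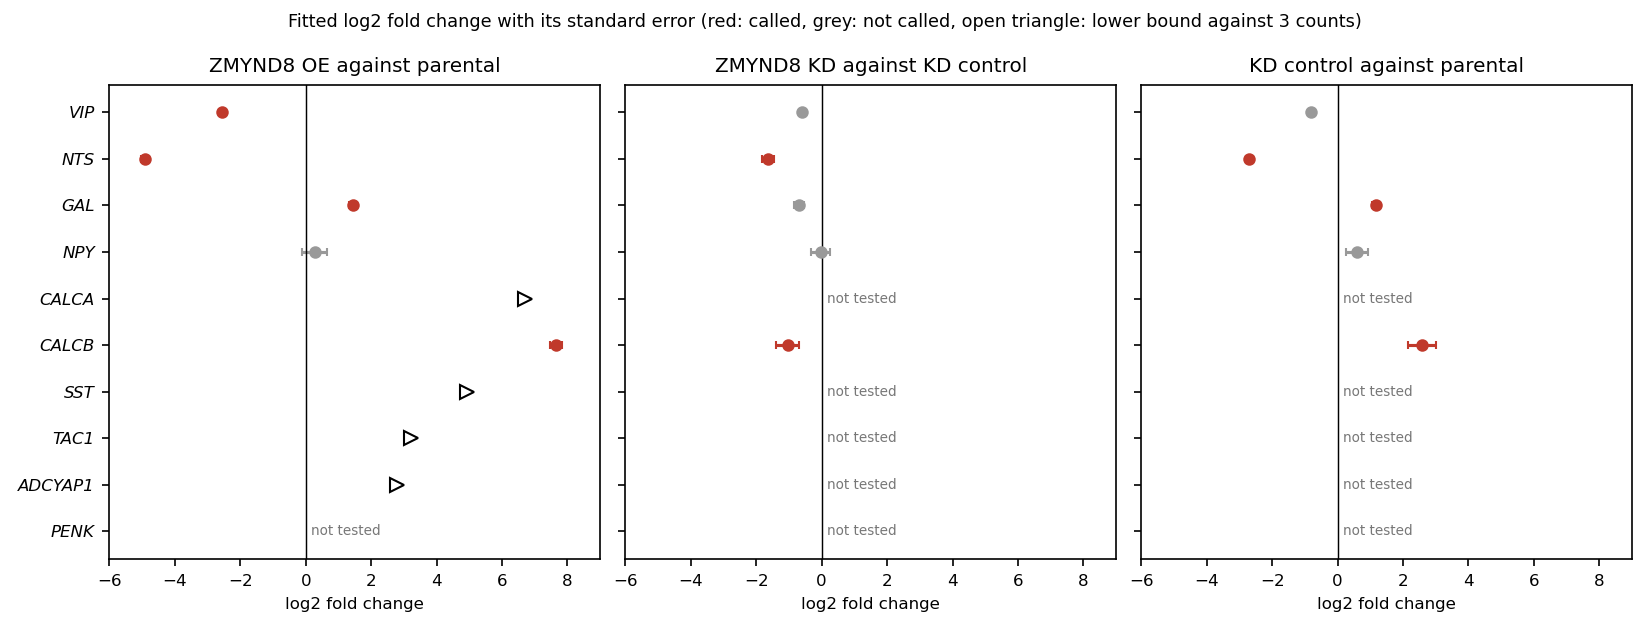
Log2 fold change of each precursor gene with its standard error in 3 comparisons of 2 libraries against 2. Red points passed a call and grey points did not, open triangles are lower bounds against 3 counts per library, and genes with too few counts are marked as not tested; on knockdown the 5 points lie at or below 0, from -1.64 for NTS to -0.04 for NPY.

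Levels can be set between genes only per length, as CPM per kilobase of exon (RPKM). In parental cells VIP was highest at 61.8 RPKM, followed by NTS at 15.3, GAL at 5.89, NPY at 0.625 and CALCB at 0.0311, with no overlap between neighbours in this order. On overexpression the order was GAL at 15.1 RPKM, VIP at 9.72, CALCB at 5.88, SST at 3.28, CALCA at 3.22, NPY at 0.702, NTS at 0.477, TAC1 at 0.354, ADCYAP1 at 0.116 and PENK at 0.0149. The libraries of SST and CALCA overlapped in that order. NTS thus went from the second to the seventh place. In KD control cells VIP was at 34.9 RPKM, GAL at 13.2 and NTS at 2.34, and on knockdown they were at 23.2, 8.22 and 0.748, where NTS overlapped with NPY at 0.890.

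For the 4 genes with a mean normalized count above 100 over the 8 libraries, the genes with the most similar profile were sought among 13546 genes, by the root mean square difference of centred log2 CPM. For VIP they were THBS2, PLAT and TGM2, at 0.12, 0.14 and 0.16, where the profile of VIP itself varied by 0.98. For NTS they were OR10AC1, G0S2 and LAMB3, at 0.41, 0.55 and 0.57, against 1.91 for NTS itself. For GAL the closest were ADCY10P1, ZNF826P and ELOVL2, at 0.14, 0.17 and 0.18, against 0.57. For CALCB they were WNT6, CNR1 and PPARGC1A, at 0.52, 0.56 and 0.60, against 2.75. CNR1, the cannabinoid receptor gene, had 8 and 8 counts in parental cells and 2374 and 2102 on overexpression. These profiles rest on 4 groups and are a description.

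The position of the genes was not used to choose them, so their nearest neighbours with a mean normalized count above 20 were examined. On overexpression 6 of 18 different neighbours were called, 2 higher and 4 lower, beside 21.9% of all genes with such a mean. Nothing is read from this count, since INSC passed the mean only because overexpression cells expressed it. MYCT1, 26.2 kb from VIP, had 531 and 577 counts in parental cells and 59 and 48 on overexpression, a log2 fold change of -3.42 (SE 0.14, edgeR adjusted p = 8.82e-09). RASSF9, 37.9 kb from NTS, went from 424 and 482 counts to 73 and 41, a log2 fold change of -3.05 (SE 0.17, edgeR adjusted p = 1.01e-07). Both lie on the side of lower coordinates. On the other side of VIP and NTS, FBXO5 (-0.25) and C12orf29 (-0.36) were not called. On knockdown, where VIP and NTS were also below their controls, MYCT1 was at 0.27 and RASSF9 at -0.55, neither called. INSC, a gene of spindle orientation 30.1 kb from CALCB and 140 kb from CALCA, was at 0 in both parental libraries and at 65 and 86 counts on overexpression, at least 23.2-fold higher. Its call was lost without overexpression replicate 2.

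The other called neighbours were BCL6, FAM221A and the lncRNA ENSG00000286975. BCL6, a transcriptional repressor 51.0 kb from SST, was lower while SST was higher (log2 fold change -1.54, edgeR adjusted p = 2.20e-08). FAM221A (1.22) lay 581 kb from NPY, and ENSG00000286975 (-1.98, lost without parental replicate 2) 1594 kb from ADCYAP1. The closest neighbours of all did not pass. CYP2R1, 12.8 kb from CALCB, had a log2 fold change of 0.31, and TESMIN, 16.3 kb from GAL, one of 0.00, with a sign that varied among the alternatives. On knockdown edgeR and DESeq2 each called 0 of 18 neighbours, beside 2.26% called by edgeR among all genes with such a mean. In edgeR 7 of the 18 had an unadjusted p below 0.05 and 5 an adjusted p below 0.05. In KD control against parental cells 7 of 18 were called, beside 25.5%, among them MYCT1 (-1.74) and FAM221A (1.14). Nothing is read from that count either, since the lncRNA ENSG00000260808 passed the mean only through the parental libraries. It had 55 and 62 counts there and 1 and 1 in KD control cells.

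**Figure D4:**
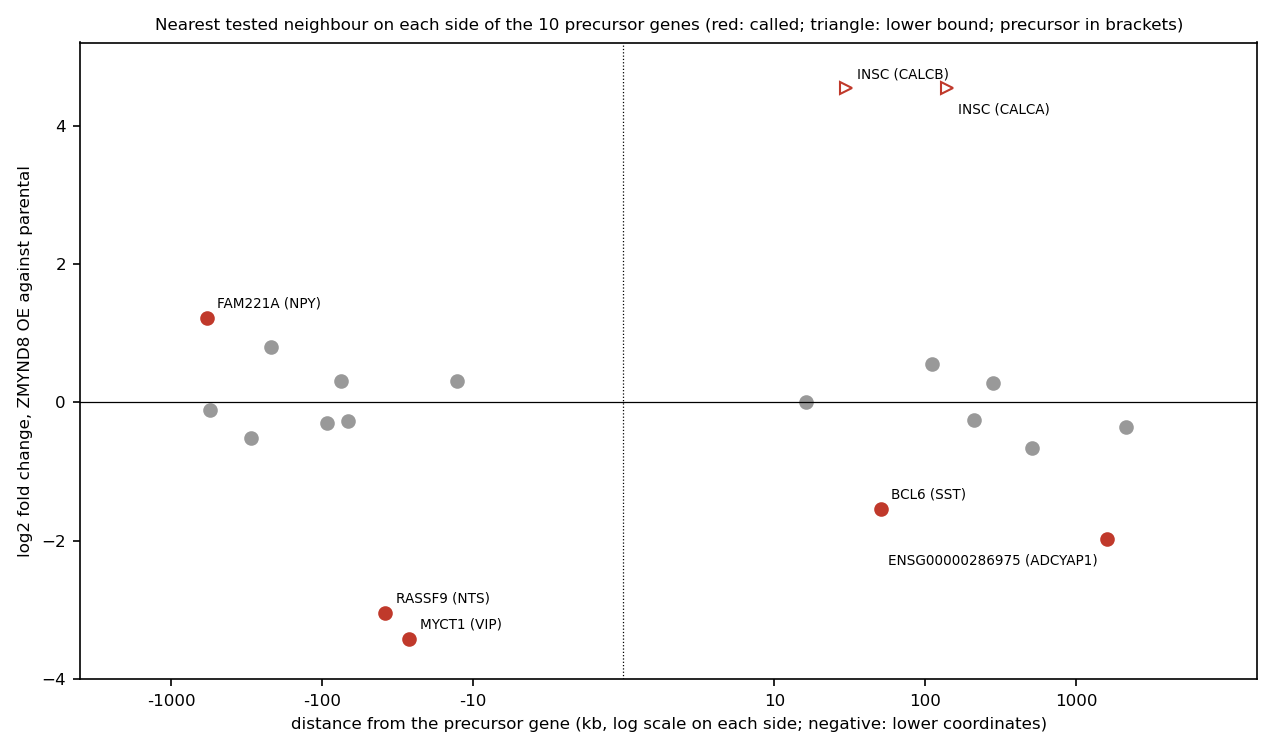
Log2 fold change on overexpression of the nearest tested gene on each side of the 10 precursor genes, against its distance in kb (log scale on each side of 0). Called neighbours are red and named with their precursor in brackets, triangles are lower bounds, and INSC appears next to both CALCB and CALCA; MYCT1 and RASSF9 are the lowest points, at -3.42 and -3.05.

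The receptors of these peptides were examined as a list of 30 genes, of which 20 were tested on overexpression and 3 were at 0 in all libraries. Of the 20, 6 rose and 3 fell, beside 18.6% of all genes called. Nothing is read from this count, since several, among them NPY1R, SSTR1 and SSTR5, were tested only because overexpression cells expressed them. ADCYAP1R1, the PACAP receptor, rose from 42 and 31 counts to 743 and 663 (log2 fold change 4.21, SE 0.18, edgeR adjusted p = 1.11e-08). The NPY receptor genes NPY1R, at 2 and 1 counts in parental and 77 and 52 in overexpression cells, and NPY2R, at 0 and 3 against 71 and 46, were also called higher. They too were tested only because overexpression cells expressed them, so no p-value is given. Both of these calls were lost without overexpression replicate 1.

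The 3 receptors that fell were NTSR1, VIPR2 and CALCRL. NTSR1, a neurotensin receptor, went from 355 and 478 counts to 90 and 59 (log2 fold change -2.53, SE 0.16, edgeR adjusted p = 1.93e-07). VIPR2, a receptor of VIP and PACAP, fell from 373 and 483 to 149 and 162 (log2 fold change -1.49, SE 0.15, edgeR adjusted p = 8.20e-06). VIPR1, the other VIP receptor gene of the list, was at 0 in both parental libraries and had 18 and 21 counts on overexpression, without a call. CALCRL, the shared receptor of CGRP and adrenomedullin, fell from 353 and 440 to 151 and 125 (log2 fold change -1.57, SE 0.12, edgeR adjusted p = 1.44e-06).

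On knockdown 1 of 13 tested receptors was called, VIPR2, from 39 and 53 counts to 12 and 18 (log2 fold change -1.56, SE 0.33, edgeR adjusted p = 0.00597), beside 1.96% of all genes. That call was lost with DESeq2 and without KD control replicate 2. In KD control against parental cells 4 of 14 receptors rose and 4 fell, beside 21.6% of all genes called. Nothing is read from this count, since NPY2R was tested only because KD control cells expressed it. OPRM1, the mu opioid receptor (log2 fold change 4.28, SE 0.11, edgeR adjusted p = 1.67e-10), OPRD1 (2.52) and RAMP2 (2.00) rose. These 3 were also called higher on overexpression, at 3.08, 3.50 and 1.70. VIPR2 fell (-3.40, SE 0.17, edgeR adjusted p = 2.24e-08). NTSR1 (-2.19), CALCRL (-1.93) and ADCYAP1R1 (1.59) were also called there, in the same direction as on overexpression.

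**Figure D5:**
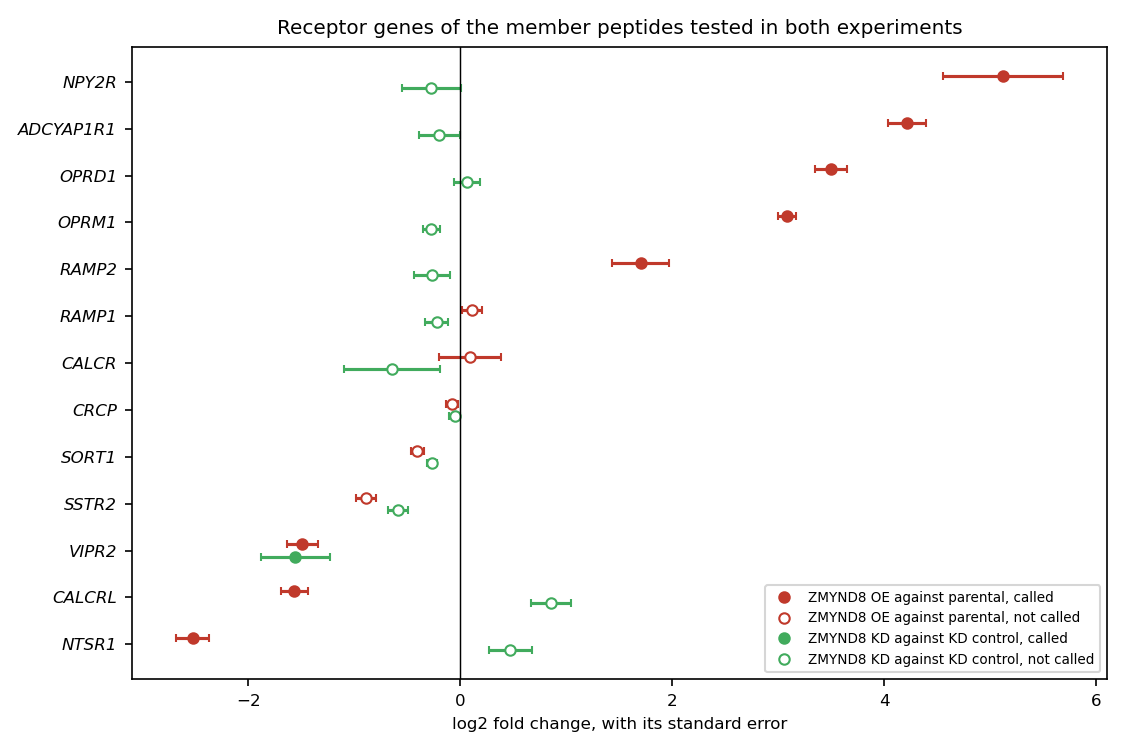
Log2 fold change with its standard error of the 13 receptor genes tested in both experiments, overexpression against parental in red and knockdown against KD control in green, filled where called. VIPR2 is the gene filled in both, at -1.49 and -1.56, and on knockdown no other receptor is filled.

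The enzymes that cut, amidate or inactivate peptides formed a list of 18, all tested on overexpression. Of these, 5 rose and 3 fell, beside 11.8% and 6.84% of all genes. Their median log2 fold change was -0.40, beside 0.03 over all genes. Nothing is read from these counts, since PCSK2 and PCSK1 were tested only because overexpression cells expressed them. For the same reason their p-values are not given. PCSK2, a prohormone convertase of neurons, was at 0 in both parental libraries and at 311 and 236 counts on overexpression, at least 81.9-fold higher. PCSK1, its partner convertase, went from 3 and 0 counts to 39 and 44, a call that was lost without either overexpression library (replicate 1 or 2). PCSK5 also rose, from 18 and 11 counts to 154 and 121, with a log2 fold change of 3.18 (SE 0.29).

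The 3 enzymes that fell on overexpression were PAM, MME and DPP4. PAM, which amidates the ends of peptides such as CGRP, VIP and NPY, went from 42990 and 52913 counts to 19780 and 17266 (log2 fold change -1.41, SE 0.05, edgeR adjusted p = 3.54e-09). The peptidases MME (neprilysin) and DPP4 fell by 1.56 and 2.06 on the log2 scale (edgeR adjusted p = 1.67e-09 and 9.20e-09). PAM and MME were also called lower in KD control than in parental cells, with log2 fold changes of -1.85 and -3.76. DPP4 was higher there, at 0.52, without a call. On knockdown edgeR and DESeq2 each called 0 of 15 tested enzymes. In edgeR 6 of them had an unadjusted p below 0.05 and 3 an adjusted p below 0.05, as did 4799 of all 19789 genes tested.

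Other neuropeptide precursors were measured through a list of 50 genes, 10 of them at 0 in all libraries. On overexpression 20 were tested, of which 2 rose and 4 fell, beside 11.8% and 6.84% of all genes. Their median log2 fold change was 0.32, beside 0.03 over all genes. Nothing is read from these counts or this median, since several, among them NPPB and CCK, were tested only because overexpression cells expressed them. NMU, the neuromedin U gene, rose from 12 and 24 counts to 130 and 94 (log2 fold change 2.59, SE 0.28, edgeR adjusted p = 1.46e-05). NPPB, the B-type natriuretic peptide gene, rose from 1 and 4 to 63 and 28 (4.06, SE 0.56), a call lost without overexpression replicate 1. GRP, the gastrin-releasing peptide gene, fell from 37 and 40 to 4 and 4 (-3.27, SE 0.41), UCN2 from 30 and 38 to 9 and 6 (-2.21) and PTHLH from 210 and 234 to 120 and 74 (-1.26). The calls of GRP and UCN2 were lost without either parental library (replicate 1 or 2). In KD control against parental cells GRP (-4.37) and UCN2 (-1.31) were also called lower. PTHLH was higher there, at 0.92, without a call.

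On knockdown 1 of 12 tested other precursors was called, NPPB, which rose from 9 and 13 counts to 71 and 63 (log2 fold change 2.64, SE 0.30), beside 1.96% of all genes. NPPB was thus above its control in both experiments. NTS and VIP were below their controls in both.

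The CREB family and REST, a repressor of neuronal genes, made up a list of 7 genes with 0 called on overexpression and 0 on knockdown by edgeR and by DESeq2. An unadjusted p below 0.05 in edgeR was found for 5 and 3 of them, and an adjusted p below 0.05 for 4 and 1, which fell short of the fold threshold. Over all genes tested, 12663 of 20835 on overexpression and 4799 of 19789 on knockdown had such an adjusted p. REST had a log2 fold change of -0.61 (SE 0.05) on overexpression, and CREB1 one of 0.00 (SE 0.06).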

How the data were processed

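Total RNA was sequenced in 8 libraries of SK-N-SH cells, and the authors deposited raw counts per gene, which are whole numbers and not normalized. Per the methods, trimmed and quality-filtered reads were aligned to GRCh38 with Hisat2, and featureCounts assigned them to GENCODE genes; the labels name HISAT2, DESeq2 and hg38. The strand setting of counting is not given in the sources used here. Of 60662 lines, 3 belonged to a gene broken over lines and were left out. Symbols were matched in GENCODE release 44 for 60462 of 60659 identifiers.

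The members and gene lists were chosen with earlier results of these data known. Samples were grouped by their titles and treatments. Counts were filtered with filterByExpr, scaled by TMM and fitted in R 4.3.3 with the quasi-likelihood test of edgeR 4.0.16 (limma 3.58.1; DESeq2 1.42.0 as an alternative), two-sided, with Benjamini-Hochberg adjustment over all genes tested. A call needed a log2 fold change of 1 or more in either direction, a mean normalized count over 20 and an adjusted p under 0.05. CPM and RPKM used TMM-scaled totals, and RPKM the exon lengths in the table. Floors of 3 counts cover counting error only. With 38316523 to 56256979 counts per library, 1 count is worth about 0.02 CPM. Promoter sequences came from RefSeq (GRCh38.p14). Replicates differed by more than counting noise, with a chi-square per degree of freedom of 6.05 to 8.86. p-values measure the spread between 2 libraries per group.

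Named were all members, the 3 called genes at each end of every list in each comparison, the nearest tested neighbours, and the 3 closest profiles of each member with a mean above 100. From these the text gives those that bear on the members, and results of some marker genes are not reported here. The alternatives were RLE and upper quartile scaling, DESeq2, other thresholds, omission of the low-count filter, a single fit of all 8 libraries, the replicate block, removal of trends with gene length and GC, and leaving out each library. The fits were tested on simulated data with the means and dispersion of these libraries.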

Additional observations from a re-analysis of the deposited data

Results flagged for a closer look

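The genes given here were picked from those on the lists that were called for the difference between the overexpression and knockdown effects. That difference was tested over all 8 libraries (edgeR, adjusted over all genes tested), and 18.8% of all 22619 genes tested were called. Since the genes were picked by that call, nothing is read from it about the lists. Values below are the overexpression effect minus the knockdown effect on the log2 scale. Among the other neuropeptide precursors they were 2.39 for NMU, 1.03 for NPW, -1.10 for ADM, -1.53 for GIP and -1.74 for PTHLH. The value of NPW passed by little and did not pass with RLE scaling, DESeq2, no filter on low counts, or without KD control replicate 1 or parental replicate 1. Among the receptors they were 5.40 for NPY2R, 4.40 for ADCYAP1R1, 3.43 for OPRD1, -2.43 for CALCRL and -3.00 for NTSR1. The value of NPY2R rests on 0 and 3 counts in parental cells. Among the enzymes they were 3.11 for PCSK6, 2.15 for PCSK1N, -1.38 for PAM, -1.69 for MME and -2.64 for DPP4.

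Among the adrenergic markers the differences were 4.51 for GATA2 and 3.10 for DBH, and among the mesenchymal markers 1.46 for TWIST1, -2.35 for COL3A1, -2.43 for FOSL1 and -2.94 for CD44. Among the Schwann cell markers they were 3.14 for S100B and 2.92 for ERBB3, and among the sensory neuron markers 2.15 for PRPH and -1.52 for RUNX1.

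Both overexpression libraries lay above both parental libraries, and both knockdown libraries below both KD control libraries, for CALCB (log2 fold changes 7.67 and -1.04) and for GAL (1.44 and -0.68). These opposite directions were not tested, since both genes were chosen with such results known.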

How the results depend on the processing

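No called value of a precursor gene changed sign under any alternative run, and the 40 group means in RPKM moved by no more than 1 SD with RLE scaling. Of the fitted values of precursor genes under alternatives, 306 kept their size within the spread and 18 moved. On knockdown 2 precursor genes were called, against 1 with DESeq2, with no filter on low counts and with a mean above 100, 4 with no fold threshold, and 1 to 2 when each library was left out. With a mean above 100, the genes called numbered 2331 on overexpression, 174 on knockdown, 2611 between the control groups and 2723 for the difference of effects. With no fold threshold they numbered 11332, 4707, 12719 and 10096. Removal of trends with gene length and GC gave -2.30 for VIP, 1.09 for GAL and -4.71 for NTS on overexpression, and 1.86 for GAL, -3.26 for NTS and -1.18 for VIP between the control groups, where VIP was then called. In other genes, values near 0 changed sign. TESMIN on overexpression went to -0.0045 with RLE, -0.010 with DESeq2, -0.0016 with no filter on low counts, -0.0044 with all 8 libraries in 1 fit, -0.087 without the trends and between -0.056 and 0.067 with a library left out. FBXO5 and SDHAF3 went to 0.039 and 0.23 without the trends. On knockdown, with a library left out, C12orf29 ranged from -0.0087 to 0.066, CYP2R1 from -0.13 to 0.028, METTL4 from -0.14 to 0.12 and PPP6R3 from -0.039 to 0.013. The cause was not tested.

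Samples of different groups share a replicate number and nothing in the labels says that it marks a shared batch. Deviations of same-numbered libraries correlated at 0.05 on overexpression, 0.20 on knockdown and -0.10 between the control groups over 13546 genes. With the replicate block, 3886, 393, 4415 and 4255 genes were called in the 4 comparisons and 6, 2, 3 and 5 precursor genes, against 3876, 388, 4405 and 4244 genes and the same numbers of precursor genes without it. Depth limits SST, TAC1, ADCYAP1, PENK and CALCA outside the overexpression group, where 3 counts are worth at most 0.0712 CPM.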
